A study of Mus musculus with 16 samples.

Results

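Gene deserts are long stretches of the genome that hold no protein-coding gene. Open chromatin there often marks distal enhancers, which act on a gene over long distances by DNA looping, or promoters of long noncoding RNAs (lncRNAs). In haematopoietic stem cells (HSCs), the cells that renew all blood lineages, distal enhancers of this kind are known for genes such as Myc, whose blood-cell enhancer cluster lies far beyond its 3' end. The regions described here are the 1179 of 33773 open regions (3.49%) whose summit lay more than 100 kb from the nearest end of any of 21631 protein-coding genes and outside all of them. Peaks of all libraries were merged where they overlapped by at least 1 bp, and a region was kept if at least 2 of the 16 libraries had called it. Of the other regions, 13247 were also intergenic and 19347 lay in protein-coding genes. A further 892 regions lay inside a protein-coding gene and over 100 kb from every gene end, and were not counted as desert regions.

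Chromatin accessibility was measured by ATAC-seq, in which a transposase cuts and tags accessible DNA, in 4 libraries of each of 4 groups of sorted mouse HSCs. Old post HSCs came from young BJ recipients 3 months after transplantation of HSCs from a single male B6 donor aged 24 months, and young post HSCs from BJ recipients of HSCs pooled from 3 to 4 male B6 donors aged 8 to 12 weeks. Old pre and young pre HSCs were taken from these same donors before transplantation. Each library held 10000 HSCs. In both ages 1000 HSCs and 300000 Sca-1-depleted BJ helper marrow cells went into lethally irradiated recipients, and the marrow of 5 recipients was pooled. The labels do not say whether the HSCs taken after transplantation were sorted on a donor marker, so donor HSCs and those of recipients or helper marrow cannot be told apart in the post libraries. All pre libraries were transposed on other days than all post libraries, so stage and day of transposition cannot be told apart. Old pre 1 and 2 were transposed on day 1, old post 1 and 2 on day 4 and young pre 4 on day 3. These days held a single age each, so age and day cannot be told apart for these libraries. Old donor 4 and young donor 4 had the shortest lists before transplantation, 5687 and 9614 peaks, and old post 4 had 14008, while the other 13 lists held 17299 to 32530. Of 14 genes that mark HSCs and progenitors, 6 to 13 had a called peak at a gene end in each library, and Tek in none. Of 10 T, B and NK cell marker genes 1 to 2 were called in each library, of 7 erythroid genes 2 to 4, of 8 stromal and endothelial genes 0 to 5, and of 8 granulocyte and monocyte genes 0. Because read depth per library is unknown, the lack of a peak does not show that a region was closed. In such bulk libraries, fewer cells with a region open and less opening per cell cannot be told apart.

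Genome sequence of the regions themselves was not used here, so sequence could be shown where a desert region covered the promoter window of an lncRNA. This window is 250 bases before and 50 after its start in RefSeq (GRCm38.p6). Covered means any overlap with the window, also one that misses the start. Such an overlap was found for 59 desert regions and 60 lncRNA genes with 69 windows. The windows below belong to the only desert region with an age difference that covers a promoter (LOC115490388), to desert regions called in all or nearly all libraries (Lncpint, 2210408F21Rik, LOC115487176, Gm46116, Gm5122 and Gm41638) and to Morrbid. They were picked with their matches known: of the regions called in all 16 libraries, the windows of Gm26901 and Gm34489 and a second window of Gm41638 held no match to the motifs below and are not shown. Each is written 5′ to 3′ on the strand of its lncRNA. Capitals mark every match, on either strand, to the binding motifs of 5 kinds of factor that act in blood cells. For GATA factors the motif searched was AGATAAG. For ETS factors in general it was CCGGAAG, and for ETS factors of the PU.1 type it was GGAAGTG, so that matches to both can overlap. RUNX factors were searched with the letters TGTGGTT. The motif of AP-1, the Fos and Jun dimer, was TGANTCA, where N is any base.
LOC115490388, chr6:3182866-3183165, plus strand: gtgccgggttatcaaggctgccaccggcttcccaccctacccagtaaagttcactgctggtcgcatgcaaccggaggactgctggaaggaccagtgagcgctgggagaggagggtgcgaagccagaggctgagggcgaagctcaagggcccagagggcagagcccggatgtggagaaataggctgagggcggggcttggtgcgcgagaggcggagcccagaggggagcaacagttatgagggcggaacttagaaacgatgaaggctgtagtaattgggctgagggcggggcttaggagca
Lncpint, chr6:31218425-31218724, minus strand: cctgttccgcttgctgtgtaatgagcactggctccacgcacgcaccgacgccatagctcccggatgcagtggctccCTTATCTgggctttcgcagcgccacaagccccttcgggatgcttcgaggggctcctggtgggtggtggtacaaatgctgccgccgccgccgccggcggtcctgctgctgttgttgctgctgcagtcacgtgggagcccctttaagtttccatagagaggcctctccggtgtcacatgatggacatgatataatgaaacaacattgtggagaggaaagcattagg
2210408F21Rik, chr6:31220101-31220400, plus strand: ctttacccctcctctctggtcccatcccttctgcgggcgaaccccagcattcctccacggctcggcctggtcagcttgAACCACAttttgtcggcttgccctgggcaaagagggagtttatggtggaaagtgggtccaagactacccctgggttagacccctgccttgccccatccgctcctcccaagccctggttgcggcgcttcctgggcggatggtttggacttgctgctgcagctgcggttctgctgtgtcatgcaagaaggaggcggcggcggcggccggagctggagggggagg
LOC115487176, chr9:61013180-61013479, plus strand: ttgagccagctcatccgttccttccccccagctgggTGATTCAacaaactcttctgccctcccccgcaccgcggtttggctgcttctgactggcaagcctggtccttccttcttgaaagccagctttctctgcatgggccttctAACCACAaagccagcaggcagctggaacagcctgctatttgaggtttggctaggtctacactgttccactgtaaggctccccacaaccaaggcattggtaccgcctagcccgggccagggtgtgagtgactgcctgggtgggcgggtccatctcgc
Gm46116, chr9:61056683-61056982, plus strand: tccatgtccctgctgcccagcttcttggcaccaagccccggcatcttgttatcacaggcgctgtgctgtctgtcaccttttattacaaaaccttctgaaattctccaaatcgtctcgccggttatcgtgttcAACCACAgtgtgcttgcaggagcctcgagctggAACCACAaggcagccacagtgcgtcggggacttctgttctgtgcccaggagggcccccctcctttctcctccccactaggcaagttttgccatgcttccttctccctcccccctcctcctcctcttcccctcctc
Gm5122, chr9:61016819-61017118, plus strand: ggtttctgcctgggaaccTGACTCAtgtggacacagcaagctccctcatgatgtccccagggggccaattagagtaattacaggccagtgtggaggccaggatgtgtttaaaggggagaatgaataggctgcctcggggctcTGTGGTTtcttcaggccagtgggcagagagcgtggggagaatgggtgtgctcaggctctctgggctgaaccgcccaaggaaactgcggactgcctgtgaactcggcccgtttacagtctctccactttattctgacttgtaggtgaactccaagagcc
Gm41638, chr17:83956754-83957053, minus strand: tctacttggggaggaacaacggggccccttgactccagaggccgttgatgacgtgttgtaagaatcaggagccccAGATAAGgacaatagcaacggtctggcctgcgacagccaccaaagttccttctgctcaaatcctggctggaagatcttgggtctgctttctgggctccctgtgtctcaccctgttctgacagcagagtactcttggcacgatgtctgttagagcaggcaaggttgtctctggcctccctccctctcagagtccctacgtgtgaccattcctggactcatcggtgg
Morrbid, chr2:128429302-128429601, minus strand: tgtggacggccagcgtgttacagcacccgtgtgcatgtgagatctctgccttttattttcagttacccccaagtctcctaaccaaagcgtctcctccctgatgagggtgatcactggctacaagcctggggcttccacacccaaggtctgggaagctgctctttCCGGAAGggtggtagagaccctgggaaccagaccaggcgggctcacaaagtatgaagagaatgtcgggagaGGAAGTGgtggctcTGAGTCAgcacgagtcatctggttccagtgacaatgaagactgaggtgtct

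Of these windows, LOC115490388 held none of the 5 motifs, and holds GGGCGGG, a motif of KLF and SP factors that is not in capitals. A GATA match began 174 bases before the start of Lncpint and 175 before that of Gm41638. RUNX matches began 172 bases before the start of 2210408F21Rik, 106 before LOC115487176, 108 before Gm5122, and 118 and 85 before Gm46116. AP-1 matches began 214 bases before the start of LOC115487176 and 232 before that of Gm5122. Morrbid held an ETS match 86 bases before its start, a PU.1-type match 15 before and an AP-1 match 1 base before it. Over all 69 promoter windows covered by a desert region, TGTGGTT was present in 20.3%, against 5.88% of 1991 other lncRNA windows in gene deserts and 5.29% of all 32619 promoter windows. GGAAGTG was present in 17.4%, 8.69% and 11.1% of the same sets, TGANTCA in 14.5%, 10.2% and 7.85%, and AGATAAG in 7.25%, 4.77% and 3.04%. CCGGAAG was present in 5.80%, 1.96% and 8.92% of these sets. GGGCGGG was present in 17.4% of the covered windows, against 2.81% of the other desert lncRNA windows and 25.7% of all promoter windows. The other 8 of the 14 motifs searched were an E-box (CAGCTG), an E-box spaced from a GATA motif, and motifs of C/EBP (TTGCNNAA), STAT (TTCCNGGAA), MEIS (TGACAGNT), IRF, HLF (TTANGTAA) and CTCF. Of these, the E-box was the most frequent in the covered windows at 17.4%, against 15.52% of the other desert lncRNA windows and 16.4% of all promoter windows, and MEIS was present in 11.6%, 7.38% and 5.04%. Median GC content was 50.3% in the covered windows, 44.7% in the other desert lncRNA windows and 53% in all promoters. The shares of GGGCGGG and CCGGAAG had the same order as GC content, and those of the GATA, RUNX, AP-1 and PU.1-type motifs were highest in the covered windows. The part of GC content in any of these shares was not tested. Windows of the same lncRNA can overlap, as those of Gm4258 do, so the 69 windows are not all separate promoters. A match is a run of letters and not a measured binding site.

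Desert regions were called in fewer libraries than other open regions. The median desert region was called in 9 of 16 libraries, against 12 for other intergenic regions and 12 for regions in genes. In all 16 libraries, 58 (4.92%) were called, against 18.1% of other intergenic regions and 14.5% of those in genes. In turn 29.8% of desert regions, 17.01% of other intergenic regions and 18.3% of those in genes were called in 2 to 5 libraries. Much of this gap lay between gene deserts and the surroundings of promoters. Of the 4747 other intergenic regions more than 10 kb from a gene, a set chosen after the first values were seen, 6.43% were called in all 16 libraries and the median was 10.

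**Figure D1:**
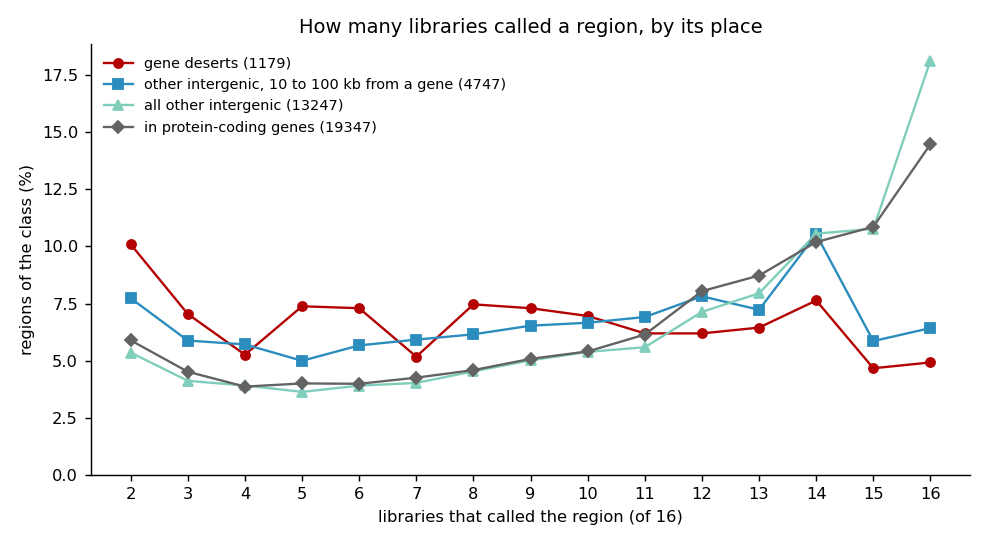
Share of the regions of each class (vertical axis, percent) against the number of libraries that called them (horizontal axis, of 16), for desert regions, other intergenic regions 10 to 100 kb from a gene, all other intergenic regions and regions in protein-coding genes. The desert curve is highest at 2 libraries (10.1%) and ends at 4.92% at 16, below the 6.43% of intergenic regions 10 to 100 kb from a gene and the 18.1% of all other intergenic regions.

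Peaks in gene deserts were also narrower and smaller than other intergenic peaks of the same library. The median desert peak was 473 to 552 bp wide in the old pre libraries and 471 to 545 bp in the young pre libraries. It was 484 to 512 bp wide in old post and 502 to 504.5 bp in young post libraries. The desert median was below that of other intergenic peaks in 16 of 16 libraries, by 169 ± 14.8 bp on average over donors (SE, n = 8; exact sign-flip test over donors, two-sided, p = 0.0078, the smallest that 8 donors allow). The area score, the caller's area under its significance curve for a peak, was lower by 209 ± 21.6 (SE, n = 8 donors; exact p = 0.0078) and lower in 16 of 16 libraries. Against intergenic peaks more than 10 kb from a gene, the differences were -34.7 bp (exact p = 0.0078) and -25.3 area units (exact p = 0.016). Most of both differences thus separates desert peaks from peaks close to genes.

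**Figure D2:**
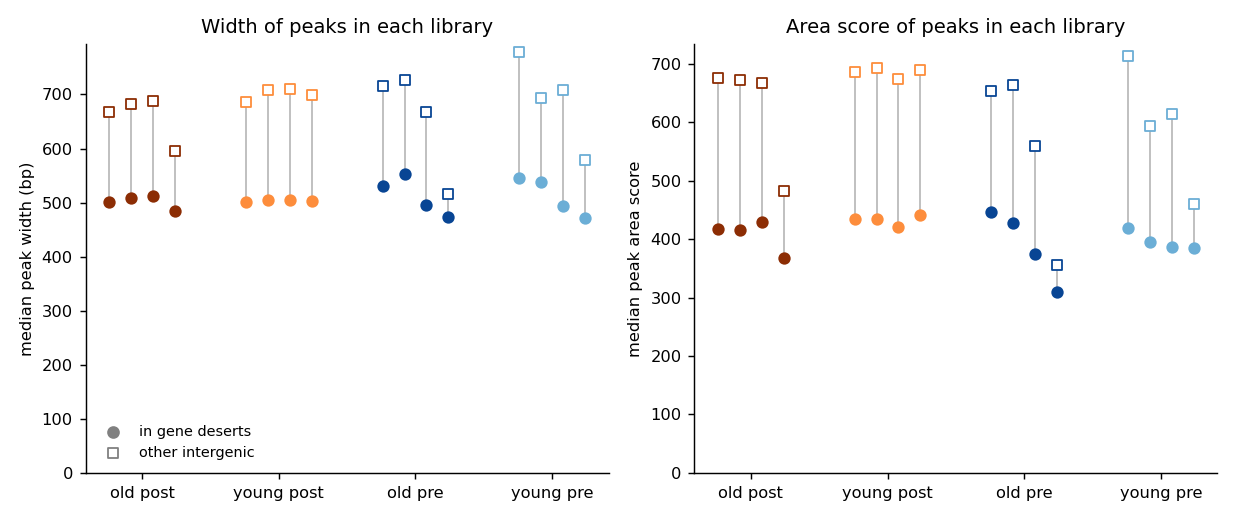
Median width in bp (left) and median area score (right) of peaks in gene deserts (filled circles) and of all other intergenic peaks (open squares) in each of the 16 libraries, with a line joining the values of a library. The circle lies below its square in every library, and the smallest gap in width is 42 bp, in old pre 4.

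Distances to the nearest gene ranged up to 1766 kb, with a median of 174.6 kb. Of the desert regions, 717 lay 100 to 200 kb from a gene, 366 lay 200 to 500 kb, 75 lay 500 to 1000 kb and 21 lay beyond 1000 kb. The median number of calling libraries was 9, 8, 9 and 10 in these bands, and 4.88%, 4.10%, 4.00% and 23.8% were called in all 16. The last share is 5 of the 21 regions beyond 1000 kb. The rule leaves little between the regions on its 2 sides. The closest inside were 100.041 kb (Map3k1 to Ankrd55, 3 libraries), 100.076 kb (Etv1 to Arl4a, 2 libraries) and 100.132 kb (Olig3 to Ifngr1, 2 libraries) from a gene. The closest outside were at 99.985 kb (Foxd1 to Tmem174, 3 libraries), 99.964 kb (Rasgrp1 to Thbs1, 2 libraries) and 99.826 kb (Ubl3 to Katnal1, 8 libraries). Chromosome 13 held 123 desert regions (10.4%), against 3.94% of all other regions, while chromosome 7 held 27 (2.29%), against 6.76%.

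Desert regions were spread unevenly over gene-free stretches, and the part of stretch length in this was not tested. They fell into 485 stretches between neighbouring protein-coding genes, of which 236 held 1 desert region and 64 held 5 or more, together 479 regions (40.6%). The 10 stretches with the most held 133 (11.3%). The stretch between Klf14 and Mkln1 on chromosome 6 had the most, 23 in 0.44 Mb, or 52.3 per Mb. It holds Lncpint, an lncRNA induced by p53, whose body carried the widest desert region, chr6:31212774-31219543 (6770 bp), called in all 16 libraries. The promoter window of Lncpint shown above lies in that region, and the window of 2210408F21Rik lies in the next one, called in 15. The Haao to Zfp36l2 stretch had 13, of which 5 were called in all 16 libraries. Zfp36l2 encodes an RNA-binding protein that destabilises mRNAs and is needed by blood stem cells. The other stretches of this rank were Gadd45g to Diras2 (14), Cd83 to Jarid2 (12), Serp2 to Lacc1 (12), Uaca to Tle3 (12), Myc to Gsdmc (11), Bcl2l11 to Spdye4c (11) and Sall3 to Galr1 (10). Jarid2 encodes a Polycomb cofactor, Tle3 a co-repressor and Bcl2l11 the apoptosis inducer Bim. The windows of LOC115487176, Gm5122 and Gm46116 all lie in the Uaca to Tle3 stretch, where 2 of 12 regions were called in all 16 libraries and the median was 13.

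The number of desert regions called in a stretch varied between libraries of a group. In the Klf14 to Mkln1 stretch, the old post libraries 1 to 4 called 9, 13, 18 and 5 of 23 and the young post libraries 17, 20, 19 and 19. Before transplantation the old libraries called 12, 18, 7 and 2 and the young libraries 20, 13, 14 and 4. The ages overlapped in both stages. In the Haao to Zfp36l2 stretch old post libraries called 11, 12, 12 and 8 of 13, and each young post library 13. The old pre libraries called 11, 11, 7 and 6 there, and the young pre libraries 11, 9, 10 and 5. In the Myc to Gsdmc stretch the counts were 4, 8, 9 and 2 of 11 in old post, 9, 8, 8 and 9 in young post, 8, 6, 2 and 1 in old pre and 4, 3, 3 and 1 in young pre libraries.

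**Figure D3:**
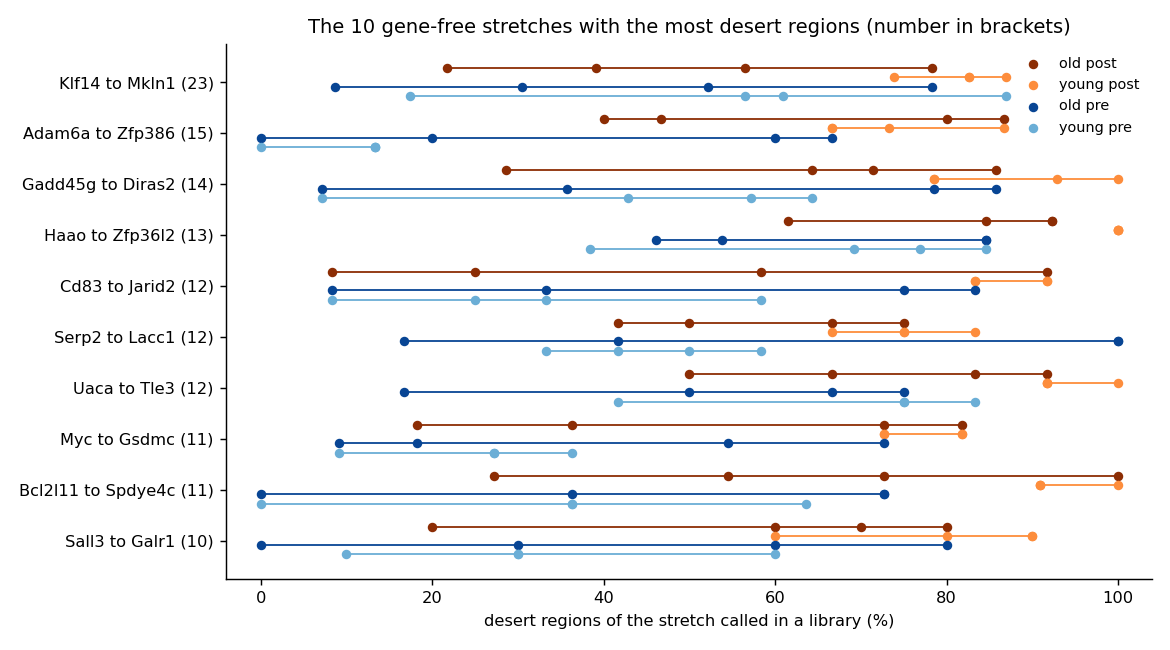
Percent of the desert regions of a stretch that each library called (horizontal axis), for the 10 gene-free stretches with the most desert regions, named by the genes on either side, with the number of regions in brackets. Each dot is a library, each line spans the 4 libraries of a group, and young pre libraries called at most 2 of the 15 regions between Adam6a and Zfp386.

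The stretch between Adam6a and Zfp386 on chromosome 12 is the variable part of the immunoglobulin heavy chain locus, Igh, whose gene segments are not counted as protein-coding genes. Its 15 desert regions were called 7, 12, 13 and 6 times in old post libraries and 10, 13, 10 and 11 times in young post libraries. In old pre libraries 9, 10, 3 and 0 were called, against 2, 2, 2 and 0 in young pre libraries. The ages overlapped in both stages, and young post libraries called more than young pre libraries in 4 of 4 donors, as they did of all desert regions (28.1 to 70.7 percentage points more). The 9 desert regions between Gm36448 and Dad1 on chromosome 14, in the T cell receptor alpha locus, were called 2, 5, 6 and 1 times in old post, 8, 8, 7 and 8 in young post, 5, 6, 1 and 0 in old pre and 6, 3, 3 and 0 in young pre libraries. None of these 24 regions was called in all 16 libraries. Both loci are open in developing lymphocytes. Among the T, B and NK markers above, Cd3e, Cd3g, Cd8a, Ms4a1, Pax5, Ncr1 and Klrb1c had no called peak at a gene end in any library.

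Noncoding genes covered a part of the deserts. Of the 1179 desert regions 318 (26.97%) had their summit inside an lncRNA gene, and 103 (8.74%) had no gene of any kind within 100 kb. Desert regions inside an lncRNA gene were called in a median of 9 libraries, and 3.77% of them in all 16, against 8 libraries and 5.34% for those outside. Regions at lncRNA promoters were called in more libraries than the other desert regions. The 59 desert regions over a promoter window were called in a median of 13 libraries, against 8 for the other desert regions, and 8.47% of them in all 16, against 4.73%. Picking regions by any overlap with a window favours wide regions. Desert regions called in all 16 libraries had a median width of 1487 bp, against 602 bp for all desert regions. The part of width in the difference between 13 and 8 libraries was not tested. Summits of the 59 regions lay a median of 122 bp from the lncRNA start. They overlap promoter windows of 60 of the 1748 lncRNA genes (3.43%) that start more than 100 kb from a protein-coding gene. The 5 called in all 16 libraries overlapped windows of Gm26901, Gm34489, Gm41638, LOC115487176 and Lncpint. The region at Gm34489 missed the start itself. It began at base 12495820 of chromosome 12, past the start at 12495774, and its summit lay 1269 bp from that start. In 15 libraries, all but old pre 4, a region was called at Dubr and at 2210408F21Rik. Firre, an X-linked lncRNA that takes part in nuclear organisation, and Morrbid, an lncRNA known to restrain Bcl2l11 in mature myeloid cells, each had a region called in 14 libraries, all but old pre 4 and young pre 4. The window of 5730522E02Rik in the Bcl11a to Fancl stretch was covered by a region called in 13 libraries, as was that of Mir99ahg, a microRNA host gene. A desert region in the Rtl1 to Dio3 stretch, an imprinted domain that carries a large microRNA cluster, lay 1785 bp from the Mir3072 hairpin and was called in 13 libraries.

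Genes on either side of the deserts were compared with 4 lists. Of 80 genes listed as transcription factors of HSCs and blood, 33 flanked 148 desert regions (12.6%). Of these regions, 11 (7.43%) were called in all 16 libraries, against 4.92% of all desert regions. Of these 11, 5 lay beside a single gene, Zfp36l2, so the share rests largely on that locus. Zfp36l2 encodes an RNA-binding protein and not a transcription factor, so 7.43% is not a share beside transcription factor genes alone. Of 37 cytokine receptor, surface and adhesion genes of HSCs, 7 flanked 31 desert regions, none of them called in all 16. Of 36 genes reported as higher in old HSCs, 4 flanked 12 desert regions, with none called in all 16. Of 46 developmental genes known to border gene deserts, 21 flanked 40 desert regions, of which 1 was called in all 16. No region beside a listed gene passed the adjusted threshold in any of the comparisons below. Over both stages, 83, 16, 6 and 25 regions of the 4 lists could be tested, and in the other comparisons at most 67 of a list. Of all regions tested, 0% to 0.465% passed in a comparison. With so few tested, 0 calls does not set these regions apart from all regions. Zfp36l2 had 13 desert regions beside it, Myc 12, and Id2, Runx1 and Sox4 had 9 each. Runx1 and Id2 encode regulators of blood stem cells and lymphocytes. Kit, the receptor of stem cell factor, had 8, called in a median of 5.5 libraries. Sox4 encodes a transcription factor of stem and progenitor cells, and 5 of its 9 regions were called in 13 or more libraries.

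The regions called in all 16 libraries beside a listed gene lay far from it. Klf6 had 2 at 268.9 and 1090 kb, Mycn had 1 at 439.1 kb, Foxo1 1 at 528.4 kb and Klf4 1 at 581.7 kb. The region beside Myc, chr15:63647269-63649372, lay 1658 kb from that gene and ranked at the 95.5th percentile of area in the median library, and at the 80.7th in the lowest. Sox9, a developmental factor, had 1 at 273.4 kb at a median percentile of 58.2. The Zfp36l2 regions lay 193.4 to 226.9 kb away, and the window of Gm41638 shown above is in the farthest of them.

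By area, 3 desert regions led in every library. At chr17:39842950-39848874, between Esp15 and Esp38, the area percentile was 100 in the median library and 99.996 in the lowest. It overlaps AY036118 and Rn18s-rs5, a pseudogene related to 18S ribosomal RNA. At chr14:19415664-19419747 the lowest percentile was 99.94 and at chr2:98666193-98667379 it was 99.83. Reads of high-copy sequence can pile up at such places, and the copy number of these 3 regions was not tested. The next by median percentile were both in Lncpint, at 99.6 and 97.8. They were followed by regions between 9530057J20Rik and Gm15319 (97.6), at the start of Gm26901 (97.2), between Setbp1 and Gm36718 (97.0), at Gm34489 beside Mycn (96.5) and beside Zfp36l2 (96.2).

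Young post libraries called the most desert regions, and the number called mostly followed the length of each list. Old post libraries 1 to 4 called 522, 819, 973 and 255 of the 1179, and young post libraries 985, 930, 929 and 945. Old pre libraries called 827, 918, 326 and 62, and young pre libraries 654, 414, 420 and 112. On average, libraries called 54.5 ± 27.05% of the desert regions in old post and 80.3 ± 2.22% in young post libraries (SD, n = 4 each). It was 45.2 ± 34.6% in old pre and 33.9 ± 18.8% in young pre libraries (SD, n = 4 each). The ages overlapped in both stages.

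To set list length aside, each library was given a presence score, the share of desert regions it called minus the share it called of all regions seen in equally many libraries, in percentage points. Before transplantation, desert regions were called more often in old HSCs on this scale. Old pre libraries scored 8.42, 4.25, 1.28 and 0.23, and young pre libraries -11.3, -6.27, -1.66 and -0.50. The ages did not overlap, and the difference was 8.48 ± 3.07 points (SE, n = 4 each). On transposition day 2, which held both ages, the difference was 7.16 points, between 2 old and 3 young libraries. Other intergenic regions differed by 0.31 ± 0.09 points in the same libraries, where the ages did not overlap either. After transplantation, old libraries scored -0.83, 2.15, 5.05 and 2.95, against -1.24, 1.53, -1.55 and -2.54 in young libraries. They overlapped, and the difference was 3.28 ± 1.498 points (SE, n = 4 each). It was 4.91 points on day 5 and 4.99 on day 6, with 1 old and 2 young libraries on each, and -1.70 points when peaks were joined by summits within 250 bp instead of by overlap. The scores of all libraries balance out by construction, so they are relative. Those of the shortest lists, old pre 4 and young pre 4, stay close to 0, while old post 4, the next shortest, scored 2.95.

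Post minus pre scores did not run in one direction. The difference within donors was 1.39 ± 2.16 points (SE, n = 8). It was -9.25, -2.10, 3.78 and 2.71 points in old donors 1 to 4 and 10.1, 7.80, 0.12 and -2.04 in young donors. With scores computed anew without library young pre 1, the mean difference was -0.40 points.

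The old minus young score before transplantation grew with the distance used to define a desert. It was 6.72 points for the 2308 regions beyond 50 kb from a gene, 8.48 beyond 100 kb and 12.0 for the 462 beyond 200 kb. For the 103 regions with no gene of any kind within 100 kb it was 14.4 points. After transplantation the same sets gave 3.05, 3.28, 4.46 and 9.36 points. The sets beyond 50, 100 and 200 kb are nested. The 103 regions are part of those beyond 100 kb and are not a further step of distance. The values of these sets are thus not independent.

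**Figure D4:**
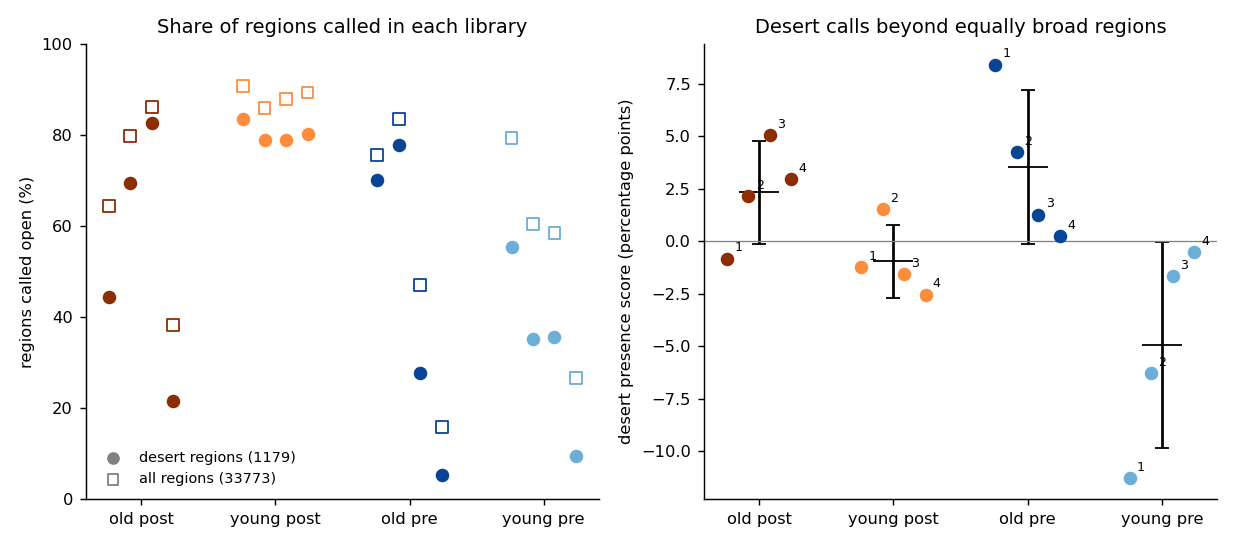
Left, percent of the 1179 desert regions (filled circles) and of all 33773 regions (open squares) called in each library. Right, the desert presence score in percentage points, with replicate numbers, the group mean (dash) and its SD (bars); all 4 old pre libraries lie above 0 and all 4 young pre libraries below 0.

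For single regions, old and young libraries were compared by an exact conditional test that weights libraries by how many regions they called, with Benjamini-Hochberg adjustment over all regions tested. Before transplantation, 369 desert regions were called in 3 to 5 of 8 libraries and could be tested, and 0 passed an adjusted p of 0.05, as did 0 (background 0%) of all 9407 regions. Fisher's exact test without weights and limma also called 0. At an unadjusted p under 0.05, 16 desert regions (4.34%) were higher in old HSCs, against a background of 1.35% of all regions tested, and 1 (0.271%) was higher in young HSCs, against 0.935%. The young-higher region, chr6:31208718-31210865 inside Lncpint, was called in 0 of 4 old pre and 3 of 4 young pre libraries, and after transplantation by no old and 2 young libraries (exact p = 0.0034, adjusted p = 0.36). It adjoins the widest desert region described above. An Igh region, chr12:115802367-115803147 over the Ighv1-74 segment, had peaks in 3 of 4 old pre and 0 of 4 young pre libraries (exact p = 0.011, adjusted p = 0.47), and in every library after transplantation. The same pre counts and p values were found for chr13:85723995-85724551, chr15:88295921-88296407 and chr1:75798439-75799069, among others. After transplantation these 3 were called in 2 old and 4 young libraries, in 1 old library and in no library, in that order.

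After transplantation, 3 of 250 desert regions tested (1.20%) passed the adjusted threshold, all higher in old HSCs, against a background of 24 of 5163 regions (0.465%). The weighted test had no other direction to call, because young post libraries called most regions and the smallest p that a young-higher region can reach is 0.35. With limma on presence, which takes no account of list length, 119 desert regions were called, 116 of them lower in old HSCs. At an unadjusted p under 0.05, 11 (4.40%) were higher in old HSCs, with a background of 1.84%, and 0 in young HSCs, with a background of 0%, as the weights fix. The 3 regions were chr2:54198134-54198841, chr8:93661816-93662039 and chr9:30137667-30138236. Each was called in old post 1, 2 and 3 and in no young post library (exact p = 0.00017, adjusted p = 0.037). All 3 calls were lost without weights, with summits joined, or when any of the 4 young post libraries was left out, and none could be tested without old post 1, 2 or 3. Their adjusted p ranged from 0.025 to 0.27 over the alternatives.

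Over both stages, 8 old against 8 young libraries, 6 of 698 desert regions tested (0.86%) passed, all higher in old HSCs, against a background of 41 of 15182 regions (0.27%), of which 38 were higher in old HSCs. At an unadjusted p under 0.05, 45 (6.45%) were higher in old and 7 (1.00%) in young HSCs, with backgrounds of 2.64% and 1.92%. The test takes all 16 libraries as independent samples, although each donor gave 2 of them. The share of old-higher regions was above the background in deserts and that of young-higher regions below it.

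The region with the smallest p, chr2:54198134-54198841, lay 112.9 kb from Rprm, which encodes the cell cycle inhibitor Reprimo, and 237.7 kb from Galnt13. It was called in old post 1, 2 and 3 at area percentiles of 10.02, 20.1 and 40.6, and in old pre 1, 2 and 3 at 55.2, 55.2 and 15.3. It was called in 0 of 8 young libraries (exact p = 4.7e-07, adjusted p = 0.0014). These post libraries are from recipients of the same 3 donors. The region chr6:3182749-3183544, over the start of LOC115490388 whose window is printed above, was called in old post 1, 2 and 3 at area percentiles of 49.5, 53.8 and 33.6 and in old pre 1, 2 and 3 at 57.7, 23.1 and 8.66. Of the young libraries, only young post 4 called it, at a percentile of 57.9 (exact p = 8.4e-06, adjusted p = 0.011).

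Both regions on chromosome 9 lay between Ntm, which encodes the neural adhesion protein neurotrimin, and Snx19, a sorting nexin gene. The wider, chr9:30137667-30138236, was called in old post 1, 2 and 3 at area percentiles of 12.0, 24.7 and 20.5, in old pre 1, 2 and 3 at 36.1, 47.9 and 17.7, and in young pre 1 at 22.3 (exact p = 8.4e-06, adjusted p = 0.011). The other, chr9:30313438-30313746, was called in old post 2 and 3 at 21.8 and 26.7 and in old pre 1, 2 and 3 at 37.0, 29.1 and 9.95. No young library called it (exact p = 6.4e-05, adjusted p = 0.028).

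The last 2 regions had the same counts, 5 of 8 old and 0 of 8 young libraries (exact p = 6.4e-05, adjusted p = 0.028). One, chr6:76387501-76388055, lay 494.0 kb from Ctnna2, which encodes a neural alpha-catenin. It was called in old post 2 and 3 at area percentiles of 11.2 and 31.3 and in old pre 1, 2 and 3 at 55.6, 49.9 and 41.6. The other, chr8:93661816-93662039, lay inside the lncRNA gene Gm26843 between Ces5a and Gnao1. It was called in old post 1, 2 and 3 at 0.62, 13.97 and 7.35 and in old pre 1 and 2 at 8.03 and 25.3. None of the 6 regions was called in either library of old donor 4, whose lists were the shortest of their group. None of the 6 calls held without weights, with summits joined within 250 bp, with limma or without old pre 3 (adjusted p 0.053 to 0.14 without it), and none could be tested on the days shared by both ages. Over all alternatives, the adjusted p of the Rprm to Galnt13 region ranged from 0.00034 to 1.

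**Figure D5:**
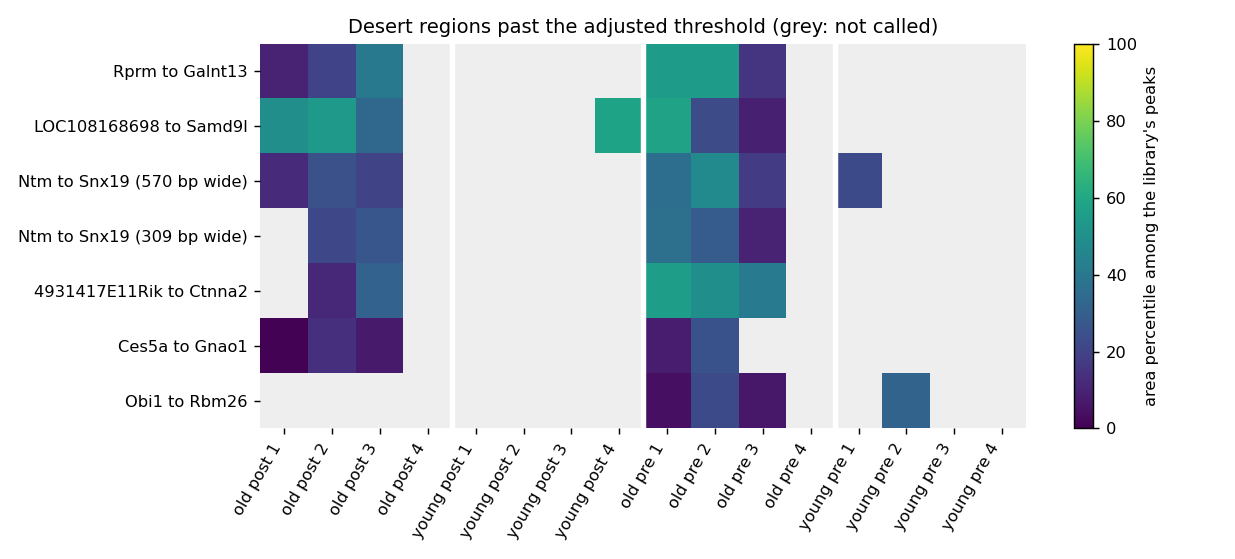
Desert regions past the adjusted threshold in any comparison (rows, named by the genes on either side) in the 16 libraries (columns). Colour gives the percentile of the region's largest peak by area score among all peaks of the library, and grey means not called; the top 6 rows are called mainly in old donors 1 to 3 and the bottom row, Obi1 to Rbm26, in pre libraries alone.

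Post and pre libraries were compared within donors by an exact conditional test over the donors whose libraries differed. Of 504 desert regions with at least 4 such donors, 1 passed the adjusted threshold (0.20%), lower after transplantation, against a background of 35 of 8941 regions (0.391%), which were all lower after it. A region higher after transplantation cannot be called by this test, whose smallest p in that direction is 0.057. With limma on presence, 327 desert regions were called, 326 of them higher after transplantation. At an unadjusted p under 0.05, 0 desert regions were higher after transplantation, with a background of 0%, as the weights fix, and 7 (1.39%) were lower, with a background of 2.89%. Among desert regions lower after transplantation, the unadjusted share was thus below the background, while the adjusted share rests on 1 region and cannot be set against it. The region past the threshold, chr14:104715729-104716089, lay inside the lncRNA gene D130009I18Rik between Obi1 and Rbm26. It was called in 0 of 8 post libraries, and in old pre 1, 2 and 3 and young pre 2 at area percentiles of 4.26, 22.6, 6.39 and 31.9 (exact p = 6.1e-05, adjusted p = 0.017). It kept its call when either library of any of the 4 other donors was left out, could not be tested without the 4 donors that differed, and lost the call without weights (adjusted p = 0.23) and with summits joined (adjusted p = 0.091), and the adjusted p lay between 0.0063 and 0.23 over all alternatives. Region chr8:121334598-121335361, between Foxl1 and 1700018B08Rik, had a peak in 3 post libraries and 5 pre libraries (exact p = 0.00039, adjusted p = 0.072).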

How the data were processed

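The 16 deposited files are peak lists, 1 per library, with no header. The submitters' processing notes name Genrich as the peak caller, Trim Galore and cutadapt for trimming, and build mm10. Aligner, versions and settings: not given in the sources used here. Column 7 of the deposited lists holds a score (area of a peak under the significance curve of the caller), and columns 8 and 9 give its -log10 p and -log10 q. As these values were not scaled to one another across libraries, tests used presence of a peak alone, and area was ranked within a library. The lists hold 387029 peaks, of which 393 (0.102%) lay outside chromosomes 1 to 19 and X and were left out.

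The members, gene lists, motifs and tests were chosen with earlier results of these data known. Regions, genes and the neighbours in the text were named by rule: those past the adjusted threshold, the 4 per direction with the smallest p, the 10 highest by median area rank among those called in all 16 libraries, the 10 stretches with the most regions, regions called in all 16 beside a listed gene, and the 3 on either side of the distance threshold. Not every region that met a rule is named in the text. Other genes, lncRNAs and promoter sequences named in the text were picked after their values were seen. Of the planned sequences of single regions none could be read. Gene positions and sequences are from RefSeq (GRCm38.p6).

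A Rasch model fitted to all regions gave each library a log odds of calling a region, and exact conditional tests, two-sided, used these as weights. Tested were regions called in 3 to 5 of 8 or 4 to 12 of 16 libraries, or with at least 4 donors whose post and pre libraries differed. Adjustment was by Benjamini and Hochberg over all regions tested, at 0.05. Post and pre libraries of an age and number are from the same donors by the series design and were paired. Their deviations from the group means correlated at r = -0.083 to 0.041. No label ties an old to a young library by number. They are separate donors or pools, with no technical repeats. Alternatives are listed in the closing part. Python 3.11.15, numpy 2.4.6, pandas 2.3.3, scipy 1.17.1, matplotlib 3.10.9 and, in R 4.3.3, limma 3.58.1 were used.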

Additional observations from a re-analysis of the deposited data

Results flagged for a closer look

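Dixon's test was run 24 times, for several measures in each group of 4 libraries, and 3 times flagged a library far from the other 3. Chance flags about 1 in 20 of independent tests, but these tests reuse the same libraries with related measures. The flags fell on old post 4 and old pre 4 alone. Among old post libraries, old post 4 had the smallest gap between desert and other intergenic peaks, -112 bp in median width and -114 in median area score, against -166.5 to -176 bp and -238 to -259 in the other 3. Among old pre libraries, old pre 4 had a width gap of -42 bp, against -173 to -183.5 bp. Both are the shortest lists of their groups. Peaks outside chromosomes 1 to 19 and X, which no comparison used, numbered 393, between 21 and 37 in each library.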

How the results depend on the processing

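Read depth behind single calls is unknown. With 4 libraries a group, few regions are testable. Before transplantation, 0 regions and 0 desert regions were called under every alternative run. Test counts over both stages and after transplantation depended on the processing, and causes were not tested.

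After transplantation, old against young, the 24 called regions (3 in deserts) became 0 (0 in deserts) with lists shortened to the third shortest, with an area score of at least 400, with summits joined within 250 bp, and with Fisher's test without weights. They became 2 (0 in deserts) on shared transposition days and 2724 (119 in deserts, of which 116 lower in old) with limma on presence, which takes no account of list length. Over both stages, the 41 regions (6 in deserts) became 16 (1) with shortened lists, 12 (0) with an area score of at least 400, 0 (0) with joined summits, 0 (0) without weights, 7 (0) on shared days and 0 (0) with limma. For post against pre, the 35 regions (1 in deserts) became 3 (0) with shortened lists, 20 (0) with an area score of at least 400, 179 (4) with joined summits, 0 (0) without weights and 5489 (327) with limma. Desert calls numbered 2 when regions had to be called in at least 4 libraries, and 2 without the 3 shortest lists, an alternative chosen after seeing the data.

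The replicate block pairing old with young libraries by number, which share a number and no stated source (same-number r = -0.234 to 0.031), gave 4 regions (0 in deserts) after transplantation and 2 (0) over both stages. No replicate block for post against pre gave 61 regions (1 in deserts). The score differences are 8.48, 3.28 and 1.39 points with or without a block. This holds by arithmetic, because every library is in a pair, so it is no check on them.

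Leaving out 1 library gave 0 to 20 regions (0 to 3 in deserts) after transplantation, 2 to 65 (0 to 11) over both stages and 12 to 44 (0 to 2) for post against pre. Over both stages the highest counts came without old post 2 and the lowest without old pre 3. Score differences ranged from 6.08 to 9.88 points before transplantation, 2.08 to 4.34 after it and -0.40 to 3.99 for post minus pre. Width differences ranged from -174.4 to -163.3 bp and area differences from -220.2 to -198.7, all with the same call.

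Counting distance from any gene gave scores of 14.4 points before transplantation, 9.36 after it and -1.08 for post minus pre. Joined summits gave -1.70 after transplantation. The plain share of regions called gave -25.9 points after transplantation and 27.8 for post minus pre. No region of the pre libraries of shared days was testable.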
